A study of Homo sapiens with 20 samples.

Results

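The comparison described here sets the highest against the lowest dose of recombinant human SPARC given to hTCEpi cells, an established human corneal epithelial line that was immortalized with telomerase. It takes 10 of the 20 RNA samples of the study, 5 of cells given 5 µg/ml (SPARC 5) and 5 of cells given 0.05 µg/ml (SPARC 0.05), chosen by their titles. Every Ensembl gene identifier in the table of counts enters once. Cells of both groups were grown in the same keratinocyte growth medium with calcium chloride and exposed for 24 hours, so the dose is the only difference the labels give between them, and no library of untreated cells entered the scaling or the test. The 5 samples at 0.5 µg/ml (SPARC 0.5) give the values at a middle dose. Nothing in the labels tells whether the 5 samples of a dose were separate cultures, so the p-values measure the spread between these samples, which may be technical. The line is a monoculture: it has no stroma, nerves or tear film, and cells that carry less of a transcript cannot be told apart from fewer cells that carry it.

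SPARC is a secreted matricellular glycoprotein that binds collagens and calcium and that cells make during tissue remodelling and wound repair. It is known to alter how cells attach to their matrix and to act on growth factor pathways, including that of TGF-beta. In the cornea, an injured epithelium migrates over a provisional matrix of fibronectin, thrombospondin and tenascin, and then rebuilds the basement membrane and the hemidesmosomes that anchor it. TGF-beta binds receptor kinases that phosphorylate SMAD proteins, which switch on genes of matrix, adhesion and feedback inhibition.

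Counts per library summed to between 32576642 and 42457986 at SPARC 5 and between 33355286 and 41531529 at SPARC 0.05. Mitochondrial transcripts took 3.47 ± 0.296% of counts at SPARC 5 and 3.78 ± 0.153% at SPARC 0.05 (mean ± SD, n = 5 each). The common biological coefficient of variation was 6.12%. The first principal component, with 16.1% of the variance, separated the doses. The second, with 13.3%, held SPARC 5 replicate 2 at 48.1 and SPARC 5 replicate 5 at −32.0, with the other 8 libraries between −14.7 and 1.92. Levels are given as CPM, a gene's reads relative to all reads of its library after TMM scaling, with no correction for gene length. The same pair of libraries had the extreme correlations of log2 CPM with gene GC content, 0.144 in replicate 2 and −0.106 in replicate 5, taken across genes, which are not independent replicates. Without both libraries, 129 of 137 genes chosen for naming that passed the test kept their call, and their log2 differences moved by a median of 0.019 and at most 0.39 (FLG).

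Markers of the labelled cell type were present. The summed level of 8 markers of corneal and basal epithelium was 11938 to 12406 CPM at SPARC 5 and 11801 to 12013 CPM at SPARC 0.05, most of it KRT5. The paired keratins of differentiated cornea were low: KRT12 had 4 counts in all 10 libraries together, and KRT3 lay between 1.42 and 2.07 CPM at SPARC 5 and between 1.28 and 2.02 CPM at SPARC 0.05. KRT7, a keratin of conjunctiva as well as of simple epithelia, was abundant at both doses, with 1068 to 1109 CPM at SPARC 5 and 594 to 636 CPM at SPARC 0.05. Panels of other cell types, none of which holds KRT7, summed to under 5 CPM. The 8 markers of stroma and fibroblasts summed to 0.620 to 2.51 CPM at SPARC 5 and 1.20 to 1.85 CPM at SPARC 0.05, with KERA and PDGFRA at 0 in all 10 libraries. For 5 conjunctival and goblet cell markers the sums were 1.63 to 2.09 CPM at SPARC 5 and 1.42 to 2.42 CPM at SPARC 0.05 (TFF1 at 0), and for 7 immune markers 1.34 to 2.14 CPM at SPARC 5 and 1.58 to 2.65 CPM at SPARC 0.05 (LYZ and CD207 at 0). The 3 endothelial markers summed to 0.238 to 0.715 CPM at SPARC 5 and 0.303 to 1.02 CPM at SPARC 0.05, and the 4 melanocyte markers to 2.60 to 4.49 CPM at SPARC 5 and 3.80 to 4.81 CPM at SPARC 0.05. The cells' own SPARC transcript had 4, 2, 1, 6 and 23 counts in the SPARC 5 libraries and 8, 2, 2, 4 and 0 counts in the SPARC 0.05 libraries, too few to test. In the library with no count, 3 counts would be 0.0722 CPM, a limit that covers counting error only.

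Many genes differed between the doses, most of them by little. The rises included fibronectin, thrombospondin, laminin chains, integrins and known TGF-beta target genes, and the falls included KRT15, CLDN1 and genes of glutathione and iron handling. Of 21079 genes tested with edgeR's quasi-likelihood test, 2013 passed an adjusted p of 0.05 (9.55% of those tested). Of these, 1274 were higher at SPARC 5 (6.04%) and 739 lower (3.51%). The median size of the log2 difference was 0.21 among the higher genes and 0.21 among the lower genes, and 193 of the higher and 107 of the lower genes differed by at least 0.5. The CPM of the 5 and 5 samples did not overlap for 1614 of the tested genes (7.66%), among them 862 of those called higher and 419 of those called lower. How the calls split between directions turned on the scaling. When TMM factors were replaced by library sizes, 907 genes were called higher and 1558 lower, so the higher share was 36.8% against 63.3% with TMM, and the median log2 difference of all genes was −0.044 against −0.0084.

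**Figure D1:**
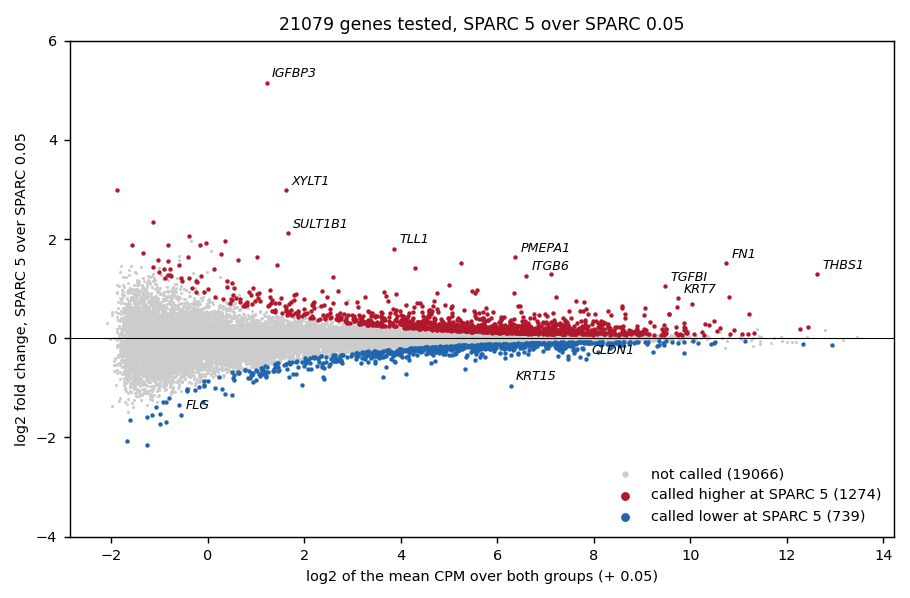
Each point is 1 of the 21079 genes tested, with the mean level over both groups on the x axis (log2 CPM) and the log2 difference of SPARC 5 over SPARC 0.05 on the y axis. The 1274 genes called higher (red) and the 739 called lower (blue) lie mostly within 0.5 of 0, while THBS1, FN1, TGFBI and KRT7 stand out among genes with many reads.

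Glycoproteins of the extracellular matrix held the largest differences in reads. THBS1 (ENSG00000137801, chromosome 15, 39581079 to 39599466, plus strand of GRCh38) encodes thrombospondin-1, a matricellular protein that can activate latent TGF-beta. It had 9662, 8927, 8814, 8810.3 and 8481 CPM in the SPARC 5 samples, against 3491, 3603, 3628, 3803 and 3786 CPM in the SPARC 0.05 samples. The lowest SPARC 5 sample lay far above the highest SPARC 0.05 sample. The means were 8939 ± 437 CPM at SPARC 5 and 3662 ± 132 CPM at SPARC 0.05 (SD, n = 5 each), a 2.44-fold difference, and the log2 difference was 1.29 ± 0.034 (SE; adjusted p = 2.32e-11). FN1 (ENSG00000115414, chromosome 2, 215360440 to 215436172, minus strand), which encodes fibronectin, the main adhesive protein of the provisional matrix, had 2484, 2501, 2593, 2629 and 2411 CPM in the SPARC 5 samples, against 765, 899.8, 899, 951 and 895 CPM in the SPARC 0.05 samples. The groups were separate by more than their whole spread, and FN1 was 2.86-fold higher, with a log2 difference of 1.52 ± 0.057 (SE; adjusted p = 1.58e-07). TGFBI (ENSG00000120708, chromosome 5, 136028895 to 136063818, plus strand), named for its induction by TGF-beta and mutated in inherited corneal dystrophies, had 1021, 953, 962, 939 and 948 CPM in the SPARC 5 samples, against 456, 473, 478, 459 and 461 CPM in the SPARC 0.05 samples. Its groups were also separate, and its difference of 1.05 ± 0.023 (SE; adjusted p = 8.58e-51) had the smallest p of all genes tested.

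Among the other matrix glycoproteins, CCDC80, a secreted protein that binds fibronectin matrix, was 58.9 CPM at SPARC 5 against 30.4 CPM at SPARC 0.05 (log2 0.95 ± 0.052, adjusted p = 4.20e-21). Tenascin TNC, another protein of healing matrix, was 17.7 CPM at SPARC 5 against 11.9 CPM at SPARC 0.05 (0.57 ± 0.074), CCN1, an integrin ligand induced by mechanical tension and growth factors, 261 CPM at SPARC 5 against 178 CPM at SPARC 0.05 (0.55 ± 0.041), and EFEMP1, a fibulin, 323 CPM at SPARC 5 against 259 CPM at SPARC 0.05 (0.32 ± 0.025). In the list as a whole, 13 of 25 tested members were called higher, 0 lower and 12 did not pass. Its median log2 difference was 0.30. All genes tested, the measure for every list below, had a median of −0.0084, with 6.04% called higher and 3.51% lower. Members that did not pass include the basement membrane-associated fibulin FBLN1 (0.083 ± 0.045), EMILIN1 (0.031 ± 0.15) and IGFBP7 (−0.021 ± 0.035). The 1274 higher genes together held 196913 CPM at SPARC 5 and 164592 CPM at SPARC 0.05. THBS1 made up 16.3% of that difference in reads and FN1 5.08%, a share of reads that is not corrected for transcript length.

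Most tested genes of the TGF-beta response list were called higher and none lower. PMEPA1 (ENSG00000124225, chromosome 20, 57648392 to 57711536, minus strand), a membrane protein induced by TGF-beta that sequesters SMADs and dampens the pathway, had 126, 125, 129.8, 128 and 115 CPM in the SPARC 5 samples, against 35.0, 40.6, 39.6, 43.5 and 43.0 CPM in the SPARC 0.05 samples. The SPARC 5 samples all lay far above the SPARC 0.05 samples, and the log2 difference was 1.63 ± 0.041 (SE; adjusted p = 3.11e-36). ITGB6 (ENSG00000115221, chromosome 2, 160099666 to 160200313, minus strand) encodes the beta subunit of an epithelial integrin that binds fibronectin and frees latent TGF-beta. It had 144, 129, 134, 144 and 132 CPM in the SPARC 5 samples, against 55.2, 60.0, 55.8, 57.7 and 56.0 CPM in the SPARC 0.05 samples, a log2 difference of 1.26 ± 0.034 (SE; adjusted p = 3.92e-44) between groups that were widely separate.

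Of the 30 TGF-beta response and feedback genes listed, 24 had enough counts to test. In all, 16 of 24 tested members were called higher, 0 lower and 8 did not pass (median log2 difference 0.41). No overlap between groups was seen in 15 of the 16 called higher, and in 862 of all 1274 genes called higher. Smaller rises were in the feedback genes SMAD7 (log2 0.37 ± 0.076, adjusted p = 0.000189), an inhibitory SMAD, and SKIL (log2 0.30 ± 0.041, adjusted p = 3.58e-08), a SMAD corepressor. BHLHE40, a transcriptional repressor, rose by 0.43 ± 0.042, ID3, an inhibitor of helix-loop-helix factors, by 0.28 ± 0.060, and FSTL3, a secreted binder of activins, by 0.51 ± 0.032. JUNB (0.11 ± 0.034) was the smallest rise. ID1 (−0.19 ± 0.13), TGIF1 (−0.053 ± 0.054), SKI (0.032 ± 0.026) and KLF10 (0.061 ± 0.047) did not pass. Some of these genes stand in other lists too, so the counts of different lists are not independent.

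Among the ligands, receptors and SMADs of the pathway, 5 of 24 tested members were called higher, 0 lower and 19 did not pass (median log2 difference 0.069). LTBP2, a protein of microfibrils related to the latent TGF-beta binding proteins, was 149.6 CPM at SPARC 5 against 106 CPM at SPARC 0.05 (log2 0.50 ± 0.030, adjusted p = 2.53e-23). The ligand TGFB1 was 217 CPM at SPARC 5 against 190.0 CPM at SPARC 0.05 (log2 0.19 ± 0.027, adjusted p = 6.47e-08), the type I receptor TGFBR1 rose by 0.20 ± 0.037, the type II receptor TGFBR2 by 0.074 ± 0.024 and the BMP receptor BMPR2 by 0.26 ± 0.035. The signal-carrying SMADs SMAD2 (−0.021 ± 0.031), SMAD3 (−0.085 ± 0.034) and SMAD4 (−0.062 ± 0.037) did not pass. The count of 0 lower members was 2 with library sizes only, 2 without SPARC 0.05 replicate 1 and 1 without SPARC 5 replicate 1, SPARC 5 replicate 5 or SPARC 0.05 replicate 2. It was also 1 with min.count 50 and with GC content and length corrected for.

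Sequence before the start site is shown for the abundant genes with the largest rises, so that they all rose follows from the choice. SMAD, AP-1 and TEAD proteins, the factors downstream of TGF-beta, growth factor and YAP/TAZ signals, are known to bind promoters of many genes. RefSeq windows of 250 bases before an annotated start (GRCh38.p14) were matched for 7 of the 10 genes, in 12 windows, since some genes have several starts. Capitals mark a SMAD box (CAGAC, or GTCTG on the other strand), an AP-1 site (TGANTCA) or a TEAD site (GGAATG, or CATTCC on the other strand), and positions count back from the start site. No motif overlapped another in the windows shown. THBS1 (chr15:39580829-39581078, plus strand) has a SMAD box at −108 and a TEAD site at −46. PMEPA1 (chr20:57710578-57710827, minus strand) has a SMAD box at −115, and of the 4 windows of that gene 2 hold a SMAD box. SPHK1 (chr17:76385028-76385277, plus strand) has an AP-1 site at −71 in the window shown, a TEAD site at −106 and a SMAD box at −199 in its other windows, and PTPRK (chr6:128520600-128520849, minus strand) a TEAD site at −83.
THBS1: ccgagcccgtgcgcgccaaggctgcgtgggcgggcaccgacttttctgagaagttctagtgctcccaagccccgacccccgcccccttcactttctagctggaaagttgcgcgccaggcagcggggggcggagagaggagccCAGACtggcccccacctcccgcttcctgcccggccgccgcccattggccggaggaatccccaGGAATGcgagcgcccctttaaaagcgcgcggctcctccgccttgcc
PMEPA1: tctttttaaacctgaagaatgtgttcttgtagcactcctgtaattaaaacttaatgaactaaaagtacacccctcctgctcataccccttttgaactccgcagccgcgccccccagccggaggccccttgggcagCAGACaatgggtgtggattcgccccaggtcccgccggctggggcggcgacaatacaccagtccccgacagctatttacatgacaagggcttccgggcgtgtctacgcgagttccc
SPHK1: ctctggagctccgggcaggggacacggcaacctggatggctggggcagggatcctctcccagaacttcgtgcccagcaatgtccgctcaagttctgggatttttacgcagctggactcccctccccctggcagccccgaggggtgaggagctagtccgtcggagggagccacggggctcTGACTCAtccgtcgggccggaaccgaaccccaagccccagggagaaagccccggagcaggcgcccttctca
PTPRK: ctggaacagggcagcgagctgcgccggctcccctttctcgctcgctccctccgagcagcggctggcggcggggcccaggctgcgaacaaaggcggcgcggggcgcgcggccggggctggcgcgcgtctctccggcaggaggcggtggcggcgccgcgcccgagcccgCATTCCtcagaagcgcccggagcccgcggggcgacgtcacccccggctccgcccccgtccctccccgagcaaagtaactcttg

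No window of FN1, ITGB6 or TGFBI held any of the 3 motifs, which says only that these letters are not in those 250 bases. The motifs are common: a SMAD box was in 38.0% of all 35116 RefSeq windows, an AP-1 site in 6.57% and a TEAD site in 11.9%. In 1697 windows of genes called higher, 37.0% held a SMAD box, 6.66% an AP-1 site and 12.4% a TEAD site. In 739 windows of genes called lower, 36.1% held a SMAD box, 6.50% an AP-1 site and 8.39% a TEAD site. In 16690 windows of all genes tested, 37.0% held a SMAD box, 4.82% an AP-1 site and 9.98% a TEAD site. A match is a description of the letters and not a site of binding. SPHK1, the kinase that makes sphingosine phosphate, was 105 CPM at SPARC 5 against 56.3 CPM at SPARC 0.05 (log2 0.90 ± 0.057, adjusted p = 2.03e-09), and PTPRK, a receptor phosphatase at cell contacts, was 191 CPM at SPARC 5 against 108 CPM at SPARC 0.05 (log2 0.82 ± 0.032, adjusted p = 1.78e-30).

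IGFBP3 and XYLT1 had the largest log2 differences of the named genes, and both had few counts at the lower dose. IGFBP3 (ENSG00000146674, chromosome 7, 45912245 to 45921874, minus strand), which binds insulin-like growth factors and is induced by TGF-beta in many cells, had 224, 146, 189, 163 and 103 raw counts in the SPARC 5 samples, against 2, 11, 0, 6 and 4 raw counts in the SPARC 0.05 samples. The log2 difference was 5.15 ± 0.31 (SE; adjusted p = 1.32e-18), whose size depends on how so few counts at SPARC 0.05 are modelled. XYLT1 (ENSG00000103489, chromosome 16, 17101769 to 17470881, minus strand), which starts the sugar chains of proteoglycans, had 203, 160, 242, 183 and 212 raw counts in the SPARC 5 samples and 14, 25, 32, 8 and 51 in the SPARC 0.05 samples (log2 2.98 ± 0.21, adjusted p = 2.39e-17). Both genes were separate in all 10 samples. SPOCK1, a proteoglycan of the SPARC family, had 357 counts summed over the SPARC 5 samples and 92 over the SPARC 0.05 samples (log2 1.97 ± 0.28, adjusted p = 1.07e-07). The sulfotransferase SULT1B1 was 5.04 CPM at SPARC 5 against 1.17 CPM at SPARC 0.05 (2.11 ± 0.17), TLL1, a protease that processes collagens and matrix proteins, 22.5 CPM at SPARC 5 against 6.43 CPM at SPARC 0.05 (1.80 ± 0.082), and FLRT2, a membrane adhesion protein, 56.3 CPM at SPARC 5 against 19.6 CPM at SPARC 0.05 (1.52 ± 0.052). SGK1, a kinase that stabilizes sodium channels, was 43.1 CPM at SPARC 5 against 20.6 CPM at SPARC 0.05 (1.06 ± 0.054).

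Basement membrane and hemidesmosome genes split by component. The laminin chains LAMB3 and LAMA3, which help anchor the epithelium, were higher at SPARC 5. LAMB3 (ENSG00000196878, chromosome 1, 209614870 to 209652466, minus strand) had 1359, 1337, 1306, 1304 and 1199 CPM in the SPARC 5 samples, against 736, 772, 804, 893 and 842 CPM in the SPARC 0.05 samples, with a log2 difference of 0.68 ± 0.057 (SE; adjusted p = 5.76e-05). LAMA3 was 1027 CPM at SPARC 5 against 665 CPM at SPARC 0.05 (0.63 ± 0.025), and neither chain overlapped between groups. COL7A1 (ENSG00000114270, chromosome 3, 48564073 to 48595267, minus strand), the collagen of the anchoring fibrils beneath hemidesmosomes, had 681, 669.6, 620.1, 639 and 616 CPM in the SPARC 5 samples, against 432, 410.2, 425, 412 and 440.2 CPM in the SPARC 0.05 samples, a difference of 0.61 ± 0.025 (SE; adjusted p = 3.14e-31) with no overlap. The type IV collagen chains COL4A1 (log2 0.55 ± 0.027, adjusted p = 9.67e-29) and COL4A2 (0.50 ± 0.041) rose, while COL4A6 was called lower (−0.10 ± 0.030) and COL4A5 did not pass (−0.017 ± 0.031). The hemidesmosome proteins COL17A1 (0.35 ± 0.023), ITGA6 (0.30 ± 0.023) and ITGB4 (0.26 ± 0.023) rose by less than LAMB3 and LAMA3, and PLEC, the plectin that ties hemidesmosomes to keratins, did not pass (0.023 ± 0.021).

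In the other direction, HSPG2, the heparan sulfate proteoglycan perlecan, was 211 CPM at SPARC 5 against 262 CPM at SPARC 0.05 (log2 −0.31 ± 0.056, adjusted p = 0.00656), the laminin chain LAMA5 was 622 CPM at SPARC 5 against 683 CPM at SPARC 0.05 (−0.13 ± 0.024) and LAMB1 278 CPM at SPARC 5 against 295 CPM at SPARC 0.05 (−0.085 ± 0.024). LAMC1, which pairs with these chains, was 379.8 CPM at SPARC 5 against 378 CPM at SPARC 0.05 and did not pass. In the whole list 13 of 23 tested members were called higher, 4 lower and 6 did not pass (median log2 difference 0.16). The count lower was 2 without SPARC 5 replicate 1 and 2 without SPARC 0.05 replicate 3.

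Integrins that bind fibronectin, collagen and latent TGF-beta were among the rises. Of integrins and focal adhesion proteins, 14 of 25 tested members were called higher, 2 lower and 9 did not pass (median log2 difference 0.12). After ITGB6 the next was TNS4, a tensin of focal adhesions, with 881 CPM at SPARC 5 against 624 CPM at SPARC 0.05 (log2 0.50 ± 0.021, adjusted p = 9.96e-32). The fibronectin receptor chain ITGA5 rose by 0.36 ± 0.036, the vitronectin receptor chain ITGB5 by 0.32 ± 0.031, the collagen receptor chain ITGA2 by 0.30 ± 0.030 and the shared partner ITGB1 by 0.15 ± 0.021. TNS3 (−0.24 ± 0.029) and ITGB8 (−0.22 ± 0.045), which also binds latent TGF-beta, were the members called lower. ITGA3, a laminin receptor chain, did not pass (−0.0096 ± 0.021), nor did the adhesion kinase PTK2 (−0.0025 ± 0.026) or vinculin VCL (−0.00097 ± 0.026).

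**Figure D2:**
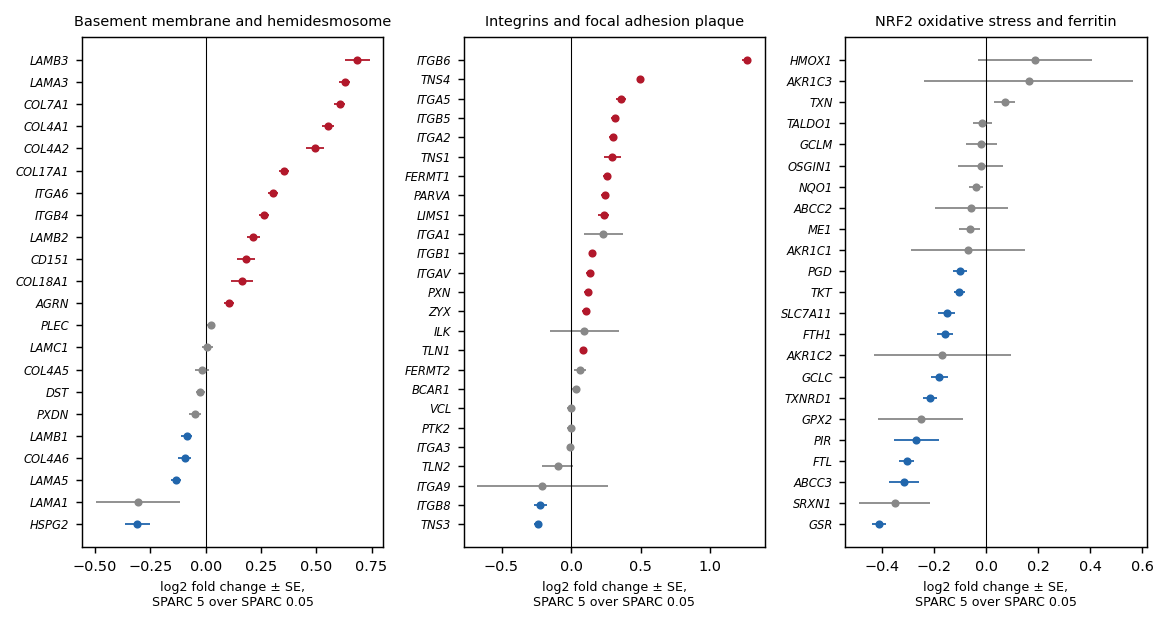
Tested members of 3 gene lists (a few are not drawn), with the log2 difference of SPARC 5 over SPARC 0.05 on the x axis (bars are ± 1 SE), red where called higher, blue where called lower and grey where not called. The laminin chains LAMB3 and LAMA3 lead the left panel and ITGB6 the middle panel, while the coloured points of the right panel all lie below 0.

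Collagens outside the basement membrane, few of which had enough counts to test, gave 3 higher, 0 lower and 5 not called of 8 tested (median 0.26). COL12A1, a collagen that decorates fibrils, was 382 CPM at SPARC 5 against 274 CPM at SPARC 0.05 (log2 0.48 ± 0.030, adjusted p = 2.86e-16), COL8A1 175 CPM at SPARC 5 against 142 CPM at SPARC 0.05 (0.30 ± 0.028), and COL1A1 6.14 CPM at SPARC 5 against 3.88 CPM at SPARC 0.05 (0.66 ± 0.13). Among collagen-modifying enzymes the count was 6 higher, 0 lower and 10 not called of 16 tested (median 0.14). The lysyl hydroxylase PLOD2 rose by 0.26 ± 0.027, the prolyl hydroxylase chain P4HA2 by 0.31 ± 0.065 and the cross-linking enzyme LOXL2 by 0.33 ± 0.091, whereas the collagen chaperone SERPINH1 (0.047 ± 0.025) did not pass.

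Matrix proteases and their inhibitors gave 11 higher, 0 lower and 12 not called of 23 tested (median 0.25), and with library sizes only 2 members were called lower. Among the inhibitors, the thrombin and plasminogen activator inhibitor SERPINE2 was 63.2 CPM at SPARC 5 against 32.3 CPM at SPARC 0.05 (log2 0.97 ± 0.050, adjusted p = 4.00e-23). The epithelial serpin SERPINB5, maspin, was 319 CPM at SPARC 5 against 250.5 CPM at SPARC 0.05 (0.35 ± 0.026). Proteases rose too. ADAMTS6 was 8.44 CPM at SPARC 5 against 3.60 CPM at SPARC 0.05 (log2 1.24 ± 0.20, adjusted p = 0.000418), ADAM19 1.15 CPM at SPARC 5 against 0.272 CPM at SPARC 0.05 (2.06 ± 0.40), the membrane collagenase MMP14 255 CPM at SPARC 5 against 215 CPM at SPARC 0.05 (0.25 ± 0.026) and the urokinase gene PLAU 30.0 CPM at SPARC 5 against 25.6 CPM at SPARC 0.05 (0.22 ± 0.066). The tissue plasminogen activator PLAT (−0.21 ± 0.083) did not pass. Synthesis of glycosaminoglycans and their core proteins was mixed, with 8 higher, 3 lower and 16 not called of 27 tested (median 0.067). CHST11, which sulfates chondroitin, was 19.5 CPM at SPARC 5 against 10.4 CPM at SPARC 0.05 (log2 0.90 ± 0.077, adjusted p = 1.00e-15) and CD44, a hyaluronan receptor, 763 CPM at SPARC 5 against 675 CPM at SPARC 0.05 (0.18 ± 0.022). The members called lower were the hyaluronan synthase HAS3 (−0.33 ± 0.053), the glypican GPC1 (−0.19 ± 0.027) and the linker enzyme B3GAT3 (−0.19 ± 0.046).

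Actin and SRF target genes rose by small amounts but in large number, with 19 higher, 0 lower and 7 not called of 26 tested (median 0.15). ACTB, cytoplasmic actin, was 5958 ± 117 CPM at SPARC 5 and 5064 ± 117 CPM at SPARC 0.05 (SD, n = 5 each), a difference of 0.23 ± 0.018 (SE; adjusted p = 1.65e-17). The actin regulator MICAL2 (0.31 ± 0.026), transgelin TAGLN2 (0.29 ± 0.027) and tropomyosin TPM4 (0.24 ± 0.024) led by p, and none of the 19 reached a log2 difference of 0.5. ACTG1 (0.025 ± 0.022), SRF itself (0.025 ± 0.031) and the smooth muscle actin ACTA2, a myofibroblast marker, at 2.48 CPM at SPARC 5 against 2.50 CPM at SPARC 0.05, did not pass. With library sizes only, and with GC content and length corrected for, 1 member of this list was called lower.

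YAP/TAZ targets gave 15 higher, 1 lower and 10 not called of 26 tested (median 0.11). CCN1 and IGFBP3, described above, belong to it, as do CCN2 (0.29 ± 0.068), the coagulation receptor F3 at 616 CPM at SPARC 5 against 443 CPM at SPARC 0.05 (log2 0.48 ± 0.052, adjusted p = 0.000242) and the ectoenzyme NT5E (0.29 ± 0.025). Many of its rises were small: 7 of the 15 had no overlap between groups, against 862 of all 1274 genes called higher. In this list 9 were called higher with library sizes only as well as without SPARC 0.05 replicate 1. The single member called lower, MYOF (−0.081 ± 0.023), was not called without SPARC 5 replicate 1, and without SPARC 0.05 replicate 1 there were 2 members called lower. ANKRD1 (−0.0052 ± 0.25), AJUBA (0.0094 ± 0.023) and PTPN14 (0.023 ± 0.025) did not pass.

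Genes of epithelial-mesenchymal transition moved in part, with 6 higher, 1 lower and 11 not called of 18 tested (median 0.047). SNAI2, the transcription factor Slug, was 136 CPM at SPARC 5 against 97.6 CPM at SPARC 0.05 (log2 0.48 ± 0.034, adjusted p = 9.80e-19), and the neural cadherin CDH2 was 3.86 CPM at SPARC 5 against 2.79 CPM at SPARC 0.05 (0.47 ± 0.15). EPCAM, an epithelial adhesion protein, was 68.7 CPM at SPARC 5 against 87.3 CPM at SPARC 0.05 (log2 −0.34 ± 0.035, adjusted p = 1.14e-12), with no overlap between groups. E-cadherin CDH1 was 100.1 CPM at SPARC 5 against 99.3 CPM at SPARC 0.05 (0.011 ± 0.033) and did not pass, nor did the splicing factor ESRP1 (0.019 ± 0.032), GRHL2 (−0.024 ± 0.032), TWIST1 (0.017 ± 0.088) or vimentin VIM, which was 0.383 CPM at SPARC 5 against 0.259 CPM at SPARC 0.05.

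Keratins moved in different directions. KRT7 (ENSG00000135480, chromosome 12, 52232520 to 52252186, plus strand), a keratin of simple and conjunctival epithelia, had 1090.3, 1100.4, 1109, 1108 and 1068 CPM in the SPARC 5 samples, against 594, 633, 636, 630.0 and 629 CPM in the SPARC 0.05 samples. These are narrow and separate ranges, and the log2 difference was 0.81 ± 0.021 (SE; adjusted p = 7.40e-45). KRT14 (ENSG00000186847, chromosome 17, 41582279 to 41586921, minus strand), a basal keratin, had 535, 446, 432, 435 and 465 CPM in the SPARC 5 samples, against 322, 292, 289.6, 305 and 299 CPM in the SPARC 0.05 samples, higher in every SPARC 5 sample (log2 0.62 ± 0.063, adjusted p = 0.000242). KRT15 (ENSG00000171346, chromosome 17, 41513743 to 41522529, minus strand), a keratin of limbal and quiescent basal cells, had 43.5, 55.9, 48.6, 52.5 and 63.3 CPM in the SPARC 5 samples, against 116, 101, 115, 82.8 and 94.8 CPM in the SPARC 0.05 samples. It was the largest fall among genes of at least 100 CPM, with no overlap (log2 −0.95 ± 0.13, adjusted p = 0.00138).

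The wound keratin KRT6A was 2784 CPM at SPARC 5 against 1989 CPM at SPARC 0.05 (log2 0.48 ± 0.028, adjusted p = 7.55e-12), KRT6C rose by 0.36 ± 0.043 and KRT6B by 0.26 ± 0.065. These 3 genes are near-identical copies, so the split of reads between them is uncertain. KRT5, the partner of KRT14, was 11248 ± 168 CPM at SPARC 5 and 11131 ± 103 CPM at SPARC 0.05 and did not pass (0.015 ± 0.017), and neither did KRT17 (0.0093 ± 0.020). In the list of basal and wound keratins the count was 4 higher, 1 lower and 3 not called of 8 tested (median 0.30). Simple epithelial keratins, a list that holds KRT7, gave 1 higher, 2 lower and 2 not called of 5 tested (median 0.27). DESeq2 and min.count 50 each gave 2 higher, and with min.count 50 the median was 0.062 over 4 tested. The members called lower were KRT18, with 270.1 CPM at SPARC 5 against 298 CPM at SPARC 0.05 (−0.14 ± 0.024), and KRT8, with 9.81 CPM at SPARC 5 against 11.8 CPM at SPARC 0.05 (−0.27 ± 0.086). The call of KRT8 was lost without SPARC 5 replicate 1, 4 or 5 and without SPARC 0.05 replicate 2, 3 or 4.

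**Figure D3:**
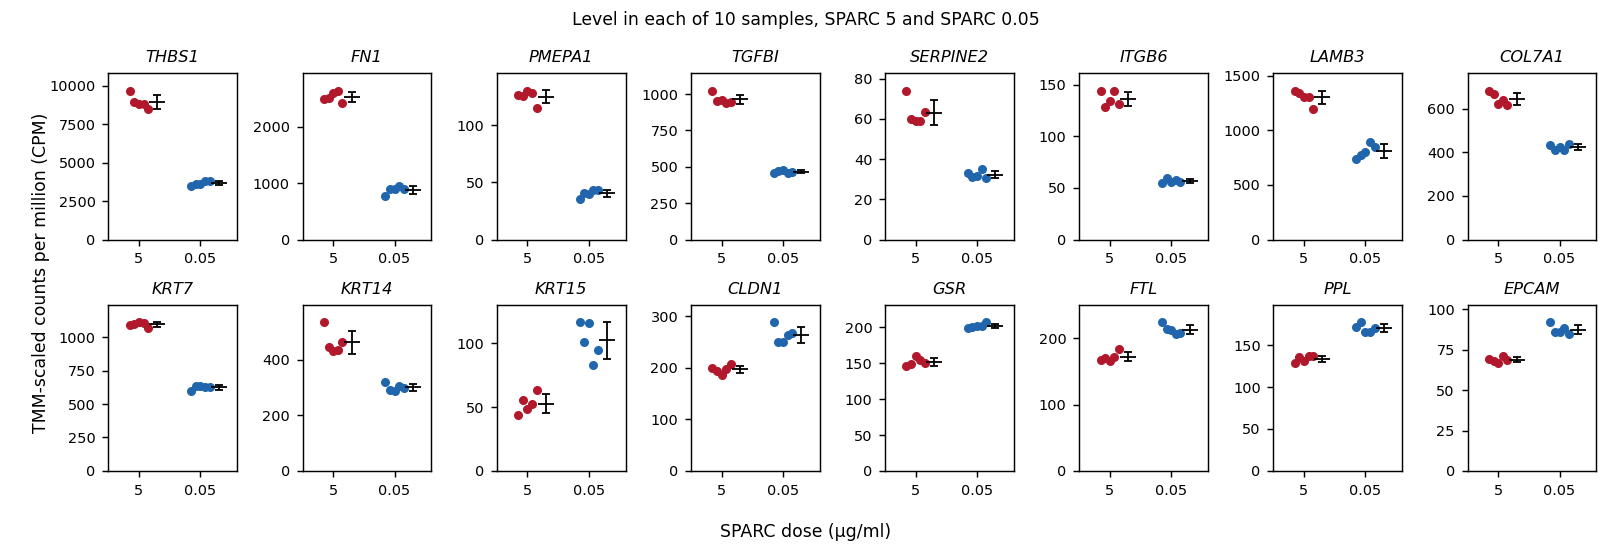
TMM-scaled CPM of 16 genes in each SPARC 5 sample (red, left) and each SPARC 0.05 sample (blue, right), with the group mean and SD as a bar beside the points and the SPARC dose in µg/ml on the x axis. In each of the 16 panels the 5 SPARC 5 samples and the 5 SPARC 0.05 samples do not overlap. THBS1 to KRT14 are higher at SPARC 5 and KRT15 to EPCAM are lower.

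Regulators of limbal and corneal identity gave 3 higher, 3 lower and 10 not called of 16 tested (median 0.073), and DESeq2 called 5 higher. The differentiation factor KLF4 was 25.5 CPM at SPARC 5 against 18.7 CPM at SPARC 0.05 (log2 0.45 ± 0.061, adjusted p = 2.64e-08), SOX9, a factor of epithelial progenitors, 41.7 CPM at SPARC 5 against 31.3 CPM at SPARC 0.05 (0.41 ± 0.051) and WNT7A, a ligand known to maintain corneal fate, 32.0 CPM at SPARC 5 against 26.5 CPM at SPARC 0.05 (0.27 ± 0.057). ALDH3A1, the aldehyde dehydrogenase that serves as a corneal crystallin, was 3.79 CPM at SPARC 5 against 6.75 CPM at SPARC 0.05 (log2 −0.83 ± 0.12, adjusted p = 3.48e-07), clusterin CLU 10.8 CPM at SPARC 5 against 14.0 CPM at SPARC 0.05 (−0.38 ± 0.081) and the nerve growth factor receptor NGFR 11.8 CPM at SPARC 5 against 15.8 CPM at SPARC 0.05 (−0.42 ± 0.084). The master regulators PAX6 (0.084 ± 0.10) and TP63 (0.063 ± 0.024) did not pass. Among corneal epithelial identity markers, which share ALDH3A1, CLU, KRT14 and EPCAM with these lists, the count was 1 higher, 4 lower and 5 not called of 10 tested (median 0.013), and their median is −0.022 with library sizes only.

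Stratified differentiation and barrier genes were few, with 9 of 29 having enough counts, and gave 0 higher, 3 lower and 6 not called of 9 tested (median −0.22). Periplakin PPL, a scaffold of the cornified envelope, was 134 CPM at SPARC 5 against 170.1 CPM at SPARC 0.05 (log2 −0.35 ± 0.028, adjusted p = 9.09e-17) with no overlap. Filaggrin FLG, a barrier protein, had 8, 16, 10, 10 and 14 raw counts in the SPARC 5 samples and 33, 34, 28, 34 and 47 in the SPARC 0.05 samples (log2 −1.55 ± 0.37, adjusted p = 0.0017). Envoplakin EVPL changed by only −0.076 ± 0.025, and that call was lost under each of the 10 omissions of 1 library except that of SPARC 0.05 replicate 4. Without SPARC 5 replicate 4, 1 member was called higher.

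Most cell junction genes did not pass, with 5 higher, 2 lower and 16 not called of 23 tested (median 0.011). Over all genes tested, 6.04% were called higher and 3.51% lower. CLDN1 (ENSG00000163347, chromosome 3, 190305701 to 190322475, minus strand), a claudin that seals tight junctions, had 199.6, 194, 187, 198 and 207 CPM in the SPARC 5 samples, against 288, 249, 250.0, 264 and 267 CPM in the SPARC 0.05 samples, lower in every SPARC 5 sample (log2 −0.42 ± 0.030, adjusted p = 2.24e-15). Desmoplakin DSP was 1266 CPM at SPARC 5 against 1156 CPM at SPARC 0.05 (log2 0.13 ± 0.020, adjusted p = 3.26e-07) and beta-catenin CTNNB1 554 CPM at SPARC 5 against 517 CPM at SPARC 0.05 (0.10 ± 0.022). Desmogleins DSG2 (0.011 ± 0.023) and DSG3 (−0.034 ± 0.040) did not pass. The counts were sensitive to single libraries: 3 members were called higher without SPARC 5 replicate 1 or without SPARC 0.05 replicate 1, 2 or 3, and 2 without SPARC 5 replicate 4. The lower count was 1 under each of those omissions and without SPARC 5 replicate 2 or 3 or SPARC 0.05 replicate 5, and the median is −0.024 with library sizes only.

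Oxidative stress and ferritin genes were the list most often lowered. Of NRF2 targets and ferritins, 0 of 24 tested members were called higher, 11 lower and 13 did not pass (median log2 difference −0.13). No overlap was seen in 8 of the 11 lower members, and in 419 of all 739 genes called lower. GSR (ENSG00000104687, chromosome 8, 30678061 to 30727999, minus strand), glutathione reductase, had 146, 149, 159.7, 155 and 149.8 CPM in the SPARC 5 samples, against 199, 200.4, 202, 201 and 207 CPM in the SPARC 0.05 samples. All 5 SPARC 5 samples lay below the SPARC 0.05 range, and the difference was −0.41 ± 0.027 (SE; adjusted p = 4.49e-21). Ferritin light chain FTL was 172 CPM at SPARC 5 against 213 CPM at SPARC 0.05 (log2 −0.31 ± 0.028, adjusted p = 7.86e-15) and heavy chain FTH1 353 CPM at SPARC 5 against 394 CPM at SPARC 0.05 (−0.16 ± 0.030). Thioredoxin reductase TXNRD1 changed by −0.22 ± 0.028, the drug exporter ABCC3 by −0.32 ± 0.057 and the glutathione synthesis subunit GCLC by −0.18 ± 0.033. The classic targets NQO1 (−0.041 ± 0.026), GCLM (−0.020 ± 0.059) and HMOX1 (0.19 ± 0.22) did not pass. Without SPARC 0.05 replicate 4, 1 member was called higher.

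Lipid genes split. Sterol synthesis and uptake had 5 higher, 2 lower and 20 not called of 27 tested (median 0.0098). The largest differences were in the exporters ABCA1 (16.7 CPM at SPARC 5 against 9.24 CPM at SPARC 0.05, log2 0.85 ± 0.084, adjusted p = 3.68e-13) and ABCG1 (0.37 ± 0.066). Enzymes of sterol synthesis were mixed: TM7SF2 was called lower (−0.36 ± 0.068), SQLE higher (0.13 ± 0.023), and HMGCS1 (−0.035 ± 0.027) did not pass. With library sizes only, 3 members of the list were called higher and the median is −0.026. Fatty acid synthesis had 3 higher, 4 lower and 7 not called of 14 tested (median −0.0087). FASN, fatty acid synthase, was 4955 CPM at SPARC 5 against 5375 CPM at SPARC 0.05 (log2 −0.12 ± 0.020, adjusted p = 1.32e-05), a call lost with all 4 groups of the study in 1 model, and the desaturase FADS2 was 89.1 CPM at SPARC 5 against 75.9 CPM at SPARC 0.05 (0.23 ± 0.035). The fatty acid median changed sign without SPARC 5 replicate 1 (0.0063), without SPARC 5 replicates 2 and 5 together (0.00042) and without SPARC 0.05 replicate 4 (0.0013).

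Chaperones of the endoplasmic reticulum were among the rises and amino acid supply genes among the falls. The list of unfolded protein and ATF4 response genes had 10 higher, 4 lower and 13 not called of 27 tested (median 0.093), with 6 called higher under library sizes only. The chaperones CALR, calreticulin (770.2 CPM at SPARC 5 against 638 CPM at SPARC 0.05, log2 0.27 ± 0.022, adjusted p = 3.66e-17), and HSPA5 (1010.3 CPM at SPARC 5 against 861 CPM at SPARC 0.05, 0.23 ± 0.022) were called higher. So was HERPUD1, a gene of protein degradation and not a chaperone (0.34 ± 0.062). The members called lower were DDIT4, an inhibitor of mTOR (182 CPM at SPARC 5 against 214 CPM at SPARC 0.05, log2 −0.23 ± 0.028, adjusted p = 9.05e-10), the cystine transporter SLC7A11 (−0.15 ± 0.033), the serine synthesis enzyme PSAT1 (−0.14 ± 0.030) and SLC3A2 (−0.082 ± 0.023). ATF4 (0.043 ± 0.025) and DDIT3 (0.014 ± 0.17) did not pass.

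EGF receptor ligands and immediate early genes had 9 higher, 1 lower and 23 not called of 33 tested (median 0.028). Amphiregulin AREG, an EGF receptor ligand, was 188 CPM at SPARC 5 against 149 CPM at SPARC 0.05 (log2 0.34 ± 0.030, adjusted p = 3.60e-15), and the transcription factors JUN (0.34 ± 0.039) and KLF6 (0.36 ± 0.030) rose. SPRY1, an inhibitor of receptor kinase signalling, was 10.3 CPM at SPARC 5 against 15.3 CPM at SPARC 0.05 (log2 −0.58 ± 0.080, adjusted p = 3.22e-08). With library sizes only, 5 were called higher and 3 lower, and the median is −0.0081. Hypoxia and glycolysis genes had 5 higher, 1 lower and 17 not called of 23 tested (median 0.058). NDRG1 was 248 CPM at SPARC 5 against 147 CPM at SPARC 0.05 (log2 0.76 ± 0.029, adjusted p = 1.08e-34) and ANGPTL4, an inhibitor of lipoprotein lipase, 60.6 CPM at SPARC 5 against 32.3 CPM at SPARC 0.05 (log2 0.91 ± 0.067, adjusted p = 1.99e-09), while VEGFA (−0.061 ± 0.036) and CA9 (−0.34 ± 0.17) did not pass. The higher count of this list was 3 without SPARC 5 replicate 4 or SPARC 0.05 replicate 3 and 2 with library sizes only, and its lower count was 0 without SPARC 5 replicate 2 or SPARC 0.05 replicate 1.

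Among p53 targets and CDK inhibitors there were 5 higher, 0 lower and 17 not called of 22 tested (median 0.026). CDKN1A, the inhibitor p21 and also a TGF-beta target, was 15.9 CPM at SPARC 5 against 11.2 CPM at SPARC 0.05 (log2 0.50 ± 0.081, adjusted p = 1.70e-06), and the median is −0.0091 with library sizes only and −0.0013 without SPARC 5 replicate 4. Cytokines, NF-kB targets and acute phase genes had 2 higher, 3 lower and 19 not called of 24 tested (median −0.050). The shares over all genes tested were 6.04% higher and 3.51% lower. The acute phase gene SAA1 was 20.5 CPM at SPARC 5 against 28.9 CPM at SPARC 0.05 (log2 −0.50 ± 0.073, adjusted p = 3.50e-06), complement C3 21.9 CPM at SPARC 5 against 30.0 CPM at SPARC 0.05 (log2 −0.45 ± 0.060, adjusted p = 1.05e-08) and the cytokine IL1A 73.4 CPM at SPARC 5 against 60.9 CPM at SPARC 0.05 (0.27 ± 0.071). The higher count of that list was 1 without SPARC 5 replicate 1 or 2 and without SPARC 0.05 replicate 2, 3 or 5. Notch and Wnt genes had 5 higher, 3 lower and 25 not called of 33 tested (median 0.042), with the ligand JAG1 (log2 0.24 ± 0.024, adjusted p = 1.97e-12) and the Wnt antagonist SFRP1 (log2 0.26 ± 0.027, adjusted p = 1.27e-12) higher and the Notch feedback gene NRARP (log2 −0.31 ± 0.054, adjusted p = 1.65e-05) lower. Its median was −0.0025 without SPARC 0.05 replicate 3, and 7 members were called lower with library sizes only.

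DNA replication and mitosis genes had 1 higher, 4 lower and 29 not called of 34 tested (median −0.027). These calls rested on single libraries and on the scaling: without SPARC 0.05 replicate 2 none was called in either direction, with library sizes only 15 were called lower and 0 higher, and the lower count was 1 or 2 without SPARC 5 replicate 1, 2 or 3 or SPARC 0.05 replicate 1 or 3. The higher count was 2 without SPARC 5 replicate 5 or SPARC 0.05 replicate 5 and 0 without SPARC 5 replicate 3 or SPARC 0.05 replicate 1. PCNA (0.011 ± 0.028), CDK1 (−0.0092 ± 0.034) and MCM5 (−0.021 ± 0.025) did not pass. Interferon-stimulated genes had 2 higher, 1 lower and 19 not called of 22 tested (median −0.016), beside 6.04% higher and 3.51% lower over all genes. Their lower count was 0 without SPARC 5 replicate 4 or 5 or SPARC 0.05 replicate 1, 2 or 3, and their median was above 0 without SPARC 5 replicate 3 or 4 or SPARC 0.05 replicate 1 or 2. The 30 cytosolic ribosomal protein genes had 1 called higher, with 0 without SPARC 0.05 replicate 2 or 5, 2 without SPARC 0.05 replicate 3, and 4 higher and 1 lower without SPARC 0.05 replicate 4. Of 13 mitochondrially encoded genes, none passed edgeR's quasi-likelihood test or had an unadjusted p under 0.05 (median −0.12), limma voom called 6 lower, and edgeR called 2 lower without SPARC 5 replicate 1.

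**Figure D4:**
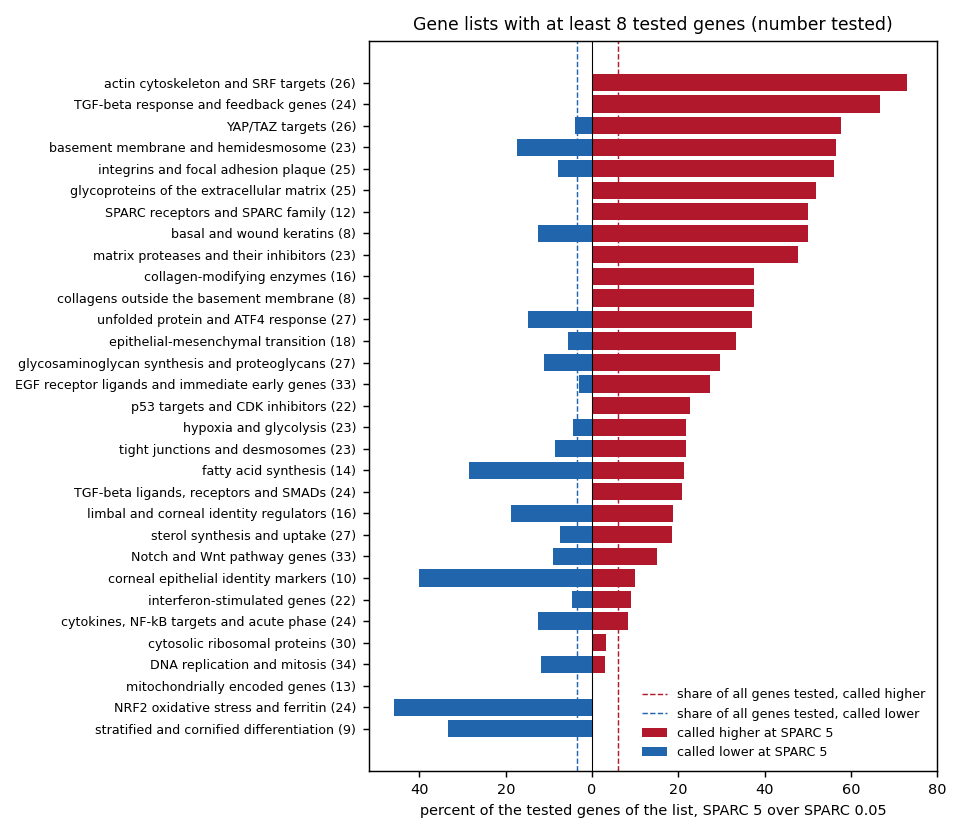
For each list with at least 8 tested genes, the bars give the percent of its tested genes called higher (right, red) and lower (left, blue) at SPARC 5 over SPARC 0.05, and the dashed lines give the same over all 21079 genes, 6.04% higher and 3.51% lower. Lists of actin, TGF-beta response, YAP/TAZ, basement membrane and integrin genes extend furthest to the right, and the oxidative stress list has lower calls and none higher.

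The list of receptors and relatives of SPARC, which also holds the activin binder FSTL3, gave 6 higher, 0 lower and 6 not called of 12 tested (median 0.25). The integrin chains among them, ITGB5, ITGB1 (log2 0.15 ± 0.021, adjusted p = 3.81e-08) and ITGAV (0.14 ± 0.029), were higher, and so were the follistatin-like genes FSTL3 (167 CPM at SPARC 5 against 118 CPM at SPARC 0.05, log2 0.51 ± 0.032, adjusted p = 2.18e-20) and FSTL1 (0.16 ± 0.049). The collagen receptor DDR1 (0.017 ± 0.027) and the SPARC relative SMOC1 (−0.52 ± 0.24) did not pass. Of the conjunctival and goblet cell markers, 1 of 7 tested members was called higher, KRT7, and 0 lower (median 0.42). Only 2 of the 7 were tested with min.count 50, so the median rests mostly on genes with few counts. AGR2 (−0.52 ± 0.24) and KRT13 (−0.75 ± 0.36) had an unadjusted p under 0.05 in edgeR, and neither passed after adjustment. None of 6 stromal, 3 immune and 6 endothelial or melanocyte markers tested passed edgeR's quasi-likelihood test, DESeq2 or limma voom. At an unadjusted p under 0.05 in edgeR there were 2, the stromal THY1 (−0.59 ± 0.26) and the melanocyte gene MLANA (−0.45 ± 0.22), both lower at SPARC 5, and 1 stromal marker was called lower without SPARC 5 replicate 5.

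Outside the lists, the largest falls of genes that reached 5 CPM were modest in level. ANKRD22 was 2.61 CPM at SPARC 5 against 5.02 CPM at SPARC 0.05 (log2 −0.94 ± 0.15, adjusted p = 1.56e-06), the calpain protease CAPN8 9.02 CPM at SPARC 5 against 15.6 CPM at SPARC 0.05 (−0.79 ± 0.084), CYP1B1, an oxidase of hormones and xenobiotics, 3.82 CPM at SPARC 5 against 6.54 CPM at SPARC 0.05 (−0.77 ± 0.12), and SUSD2 12.9 CPM at SPARC 5 against 21.4 CPM at SPARC 0.05 (−0.73 ± 0.073). The synaptotagmin SYT12 was 31.7 CPM at SPARC 5 against 49.0 CPM at SPARC 0.05 (log2 −0.63 ± 0.078, adjusted p = 2.31e-05) and SULF1, which trims sulfate from heparan sulfate, 5.62 CPM at SPARC 5 against 8.01 CPM at SPARC 0.05 (−0.51 ± 0.11). Among genes of at least 100 CPM, SCNN1A, a subunit of the epithelial sodium channel, was 182 CPM at SPARC 5 against 236 CPM at SPARC 0.05 (log2 −0.38 ± 0.028, adjusted p = 2.19e-18) and PEG10 88.4 CPM at SPARC 5 against 109.7 CPM at SPARC 0.05 (−0.31 ± 0.034). The cyclin CCND2 was 840.4 CPM at SPARC 5 against 1033 CPM at SPARC 0.05 (log2 −0.30 ± 0.048, adjusted p = 0.00358), a call lost without SPARC 5 replicates 2 and 5 together. Each gene named in this paragraph had groups that did not overlap, which is a condition of the choice.

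The libraries at 0.5 µg/ml show where along the dose range the difference arose. Of the 2013 genes called between SPARC 5 and SPARC 0.05, 89.3% had their mean at SPARC 0.5 between those of the end doses. The median share of the log2 difference already reached at SPARC 0.5 was 28.8% (quartiles 14.8% and 46.9%), 28.0% for genes called higher and 31.3% for genes called lower. For 77.6% of the genes the share was under 50%. By list, the median share was 39.9% for called actin and SRF genes, 21.6% for the TGF-beta response, 13.4% for basement membrane and hemidesmosome genes and 23.9% for the oxidative stress list. These shares are descriptions, and no difference between lists was tested.

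A test of the bend, the log2 change of the upper dose step minus that of the lower step, asks whether a gene is straight in log dose. It does not reuse the difference between the end doses. It was called for 172 of 22213 genes (0.774%), 117 bending upward (0.527%) and 55 downward (0.248%). The count was 94 without SPARC 0.5 replicate 4 and 105 without SPARC 0.5 replicate 3. Of the 2013 genes, 138 were called for the bend: 109 of those higher bent upward, 27 of those lower bent downward and 2 of those higher bent downward.

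The upward bends with the smallest p were in genes described above, though XYLT1 had a larger bend (2.26 ± 0.39, SE; adjusted p = 0.00012). TGFBI averaged 466 CPM at 0.05 µg/ml, 539.9 CPM at 0.5 µg/ml and 965 CPM at 5 µg/ml, with a bend of 0.62 ± 0.038 (SE; adjusted p = 1.41e-23). ITGB6 averaged 57.0 CPM at 0.05 µg/ml, 65.6 CPM at 0.5 µg/ml and 136 CPM at 5 µg/ml, a bend of 0.85 ± 0.062 (SE; adjusted p = 7.01e-19), and PMEPA1 40.4 CPM at 0.05 µg/ml, 50.1 CPM at 0.5 µg/ml and 125 CPM at 5 µg/ml, a bend of 1.01 ± 0.074 (SE; adjusted p = 9.96e-17). TGFBI, ITGB6 and PMEPA1 moved little over the lower step and steeply over the upper one. COL7A1 reached 8.72% of its log2 difference at SPARC 0.5, COL4A1 7.76% and PTPRK 8.00%, the smallest shares among named genes with a rise of at least 0.5 and a called bend. FN1 reached 27.0%, with a bend of 0.70 ± 0.10 (SE; adjusted p = 0.00376).

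Downward, GSR averaged 202 CPM at 0.05 µg/ml, 196 CPM at 0.5 µg/ml and 152 CPM at 5 µg/ml, a bend of −0.32 ± 0.045 (SE; adjusted p = 8.40e-07), and MAL2, a protein of apical transport, 133 CPM at 0.05 µg/ml, 135 CPM at 0.5 µg/ml and 112 CPM at 5 µg/ml, a bend of −0.28 ± 0.050 (SE; adjusted p = 0.000119). PCBP1, an RNA-binding protein, was highest at the middle dose, with 40.4 CPM at 0.05 µg/ml, 49.0 CPM at 0.5 µg/ml and 43.5 CPM at 5 µg/ml, a bend of −0.45 ± 0.079 (SE; adjusted p = 0.000172). Its end doses did not differ past the threshold (0.11 ± 0.047), though they did without SPARC 0.05 replicate 5 (0.15). KRT15 reached 23.8% of its fall at SPARC 0.5 and CLDN1 9.61%, and their bends were not called (adjusted p = 0.438 and 0.167).

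**Figure D5:**
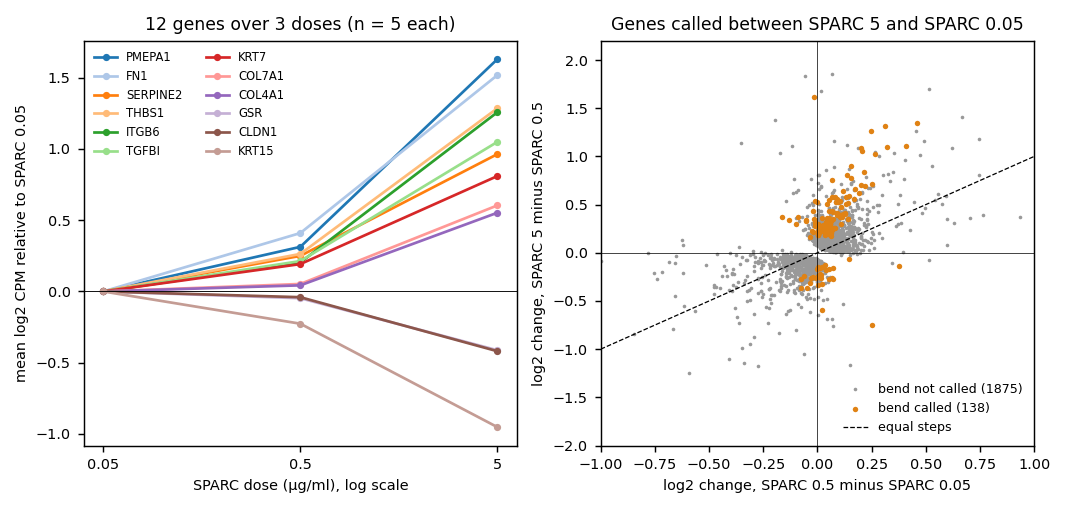
Left, the mean log2 CPM of 12 genes at 0.05, 0.5 and 5 µg/ml (x axis, log scale; n = 5 each) relative to the level at 0.05 µg/ml. Right, the log2 change of the upper dose step (y axis) against that of the lower step (x axis) for the 2013 called genes, with the 138 called for the bend in orange, equal steps as a dashed line and 9 called genes outside the axes. Most points lie farther from 0 on the y axis than on the x axis.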

How the data were processed

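RNA of 20 hTCEpi samples was sequenced, and the authors deposited 1 table of raw read counts per gene, not normalized. The submitters' processing notes name STAR 2.7.9a, Salmon 1.5.2, featureCounts 2.0.3 of Subread, bcl2fastq, edgeR, limma and the genome build GRCh38. Of the annotation release and the strand setting nothing is given in the sources used, so reads of antisense partners, near-identical copies and pseudogenes may be shared between genes. The table has 60871 entries for 60671 identifiers. The 168 identifiers on several entries (368 in all) had equal counts on each entry in every sample and were kept once, which removed 0.278 to 0.296% of the counts of a library. The 3 tables in which the authors compared each dose with untreated cells were not used here. A few genes are tested and counted but not reported by name here.

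Groups came from the sample titles. The counts of the 10 libraries at SPARC 5 and SPARC 0.05 were filtered with filterByExpr (min.count 10) and scaled by TMM. They were tested with edgeR 4.0.16 in R 4.3.3 (robust quasi-likelihood F-test), with Benjamini-Hochberg adjustment over all genes tested. A gene was called at an adjusted p under 0.05, and every adjusted p in the text is from edgeR's test, for the bend in its own fit and for the replicate block in the fit that has the block. Levels are TMM-scaled CPM (read counts relative to library size), and a prior count of 2 was added for log2 CPM. Log2 differences are given with their SE, and group means with their SD. The bend is the contrast of SPARC 5 minus 2 times SPARC 0.5 plus SPARC 0.05, fitted in 15 libraries. The tests were checked on simulated data. Depth is given in the report. The SE and SD include the spread between samples, and the limit given for SPARC covers counting error only. Chi-square per degree of freedom between pairs of replicates was 4.51 to 9.55 at SPARC 5 and 4.09 to 6.08 at SPARC 0.05, so no pair was 1 library deposited again.

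The members and gene lists were chosen with earlier results of these data known. Genes were named by rule: the 15 largest rises and 15 largest falls reaching 5 CPM and the 10 of each reaching 100 CPM, all without overlap between groups, up to 4 called members of each list by p, SPARC itself, and 3 bends per direction reaching 5 CPM. The text leaves out some of these, genes with known roles among them. The list members given beside the named genes were chosen after their values were seen. Gene positions are those of GENCODE v29 on GRCh38, and sequences are from RefSeq (GRCh38.p14). Alternatives were other scalings (RLE size factors, library sizes), other filters, DESeq2 1.42.0, voom of limma 3.58.1, more groups in the model, a replicate block, a correction for GC content and length, and fits without 1 or 2 libraries. DESeq2 left adjusted p-values undefined for some genes, which were not counted.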

Additional observations from a re-analysis of the deposited data

Results flagged for a closer look

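In 10 groups of 5 samples, 1 sample stood apart from the other 4 by Dixon's test (gap over range above 0.71). These are 3.62% of the 276 groups tested over 138 named genes, and chance gives about 1 in 20. At SPARC 5, replicate 1 was high for TGFBI (1021 CPM, with the other 4 at 939 to 962) and for COL12A1 (406 CPM, others 372 to 379). Replicate 2 was low for the chaperone PDIA3 (322 CPM, others 338 to 344). Replicate 3 was high for cyclin CCNE1 (13.6 CPM, others 11.7 to 12.2), replicate 4 low for EVPL (201 CPM, others 210.2 to 213) and replicate 5 high for TGFBR1 (73.1 CPM, others 68.9 to 70.1). At SPARC 0.05, replicate 1 was low for KRT7 (594 CPM, others 629 to 636) and high for ANKRD22 (6.65 CPM, others 4.35 to 4.77). Replicate 4 was high for KRT6A (2138 CPM, others 1923 to 1979), and replicate 5 was low for the histocompatibility light chain B2M (163 CPM, others 169 to 171).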

How the results depend on the processing

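The number of genes that differ between SPARC 5 and SPARC 0.05 stayed between 1650 and 2465 under every alternative run, against 2013 as reported. With library sizes in place of TMM factors 1558 genes were lower against 739, and the median log2 difference of all genes was −0.044 against −0.0084. Leaving out 1 library gave 1650 to 2009 genes, with 1098 to 1310 higher and 552 to 699 lower. Leaving out SPARC 5 replicates 2 and 5 together gave 1743. DESeq2 gave 2108, limma voom 1857, and no filter 1853. Leaving out SPARC 5 replicate 2 with the GC and length correction, chosen after seeing the data, gave 2108. The bend count of 172 was 94 to 174 when 1 library was left out, with the lowest values without SPARC 0.5 replicate 4 (94) and replicate 3 (105). Counts of small lists moved too: of junction genes, 3 were higher and 1 lower with no filter, of mitosis genes 1 was lower with all 4 groups in 1 model, and of Notch and Wnt genes 5 were lower with min.count 50 (median −0.013). Interferon genes had 0 to 2 lower and ribosomal protein genes 0 to 3 higher over the alternatives that left out no single library. The cause was not tested. With the replicate number as a block, 2014 genes were called, 1272 higher and 742 lower, and 186 bends. The numbers gave no sign of pairing. Deviations of same-numbered samples correlated at −0.0080 to 0.012 across genes, and of the 5 numbers only number 4 correlated best with itself. These values cannot exclude a pairing with a weak shared effect. With the block, the difference kept its call in every named gene, and the bend of CHST11 was not called by edgeR (adjusted p = 0.0527).

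Of 137 named genes called, 122 kept call and direction under every alternative that gave a value, 15 lost the call at least once and 0 reversed. The 15 were FASN, BMP1, CCND2, PKM, MXI1, MKI67, SOD2, AURKA, EVPL, KRT8, MX1, RPL10, CCNE1, BUB1B and CLDN12. Small differences are the limit of this comparison: with 5 samples a group, log2 differences near 0.1 pass in abundant genes and not in scarce ones, and a gene that did not pass may still differ.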

Other observations

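Among genes of GENCODE class lncRNA, 40 were called higher and 108 lower at SPARC 5, and 3736 did not pass. These are 1.03% higher and 2.78% lower, against 6.04% higher and 3.51% lower over all genes tested. Shares of classes were not matched for level, and small differences pass less readily in scarce genes. Among protein-coding genes 1215 were called higher, 594 lower and 11619 did not pass, which is 9.05% higher and 4.42% lower. With library sizes in place of TMM factors lower calls prevail over all genes, and the split by class was not computed there. MALAT1, a nuclear lncRNA that binds splicing factors, was chosen after its values were seen. It had 7351, 7150.4, 7537, 7586 and 7477 CPM in the SPARC 5 samples, against 7839, 8440.2, 8366, 7832 and 8189 CPM in the SPARC 0.05 samples. Its groups did not overlap, and its log2 difference was −0.13 ± 0.019 (SE; edgeR's adjusted p = 1.88e-07). It made up 9.32% of the summed difference of the 739 lower genes, which held 76247 CPM at SPARC 5 and 83894 CPM at SPARC 0.05.

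Other abundant genes were chosen after their values were seen. AHNAK, a giant scaffold protein under the plasma membrane, was 5282 ± 95.4 CPM at SPARC 5 and 4645 ± 169 CPM at SPARC 0.05 (SD, n = 5 each; log2 difference 0.19 ± 0.019). The cytosolic chaperone HSP90AA1 was 1326 ± 44.6 CPM at SPARC 5 and 1445 ± 38.5 CPM at SPARC 0.05 (log2 difference −0.12 ± 0.021). The atypical cadherin FAT2 was 541 ± 31.7 CPM at SPARC 5 and 654 ± 24.5 CPM at SPARC 0.05 (log2 difference −0.27 ± 0.036). All 3 passed edgeR's test. The median transcript length was 4036 bases for genes called higher, 3891 bases for genes called lower and 2614 bases for all genes tested, and the median GC content was 50.5%, 51.7% and 48.1% in the same order. These medians were not matched for level or gene class. Of the genes tested in both fits, 33 were called for the bend but not for the difference between SPARC 5 and SPARC 0.05, 25 of them bending downward.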
